A study of Mus musculus with 4 samples.

Results

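The genes described here are 31 mouse genes of the passage from G1 into S phase and of DNA replication, out of 22177 named genes on the arrays. They were picked by name as a functional group, with earlier results of these data known, and each is represented by the probe that was brightest on average over the arrays among the probes carrying its name. All 31 had a probe, and 30 were clearly brighter than background on all 4 arrays (called well above background by Agilent's test of each spot). The exception was Ccne2, which passed on 1 array.

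Each of 4 mouse cultures was measured on 1 single-colour array. All 4 carry the genotype p53-/- and are labelled as brain of the E14.5 embryo, grown in medium without serum. NSC is the starting culture of neural stem cells. NSC-Ceacam1L is labelled as carrying the long form of Ceacam1, a cell adhesion molecule of the immunoglobulin family. NSCL61 is a cell line of the same genotype, known as a glioma-initiating derivative made with an activated Ras. NSCL61-Ceacam1sh is labelled as carrying a short hairpin RNA against Ceacam1. Transfectants were kept under hygromycin for 1 week, per the labels' protocols, and the labels do not say whether NSC and NSCL61 received an empty vector, whether a culture was a clone or a pool, or which promoter drove the constructs. According to the series' design text, the purpose was to find genes downstream of Ceacam1 through NSC-Ceacam1L against NSC and NSCL61-Ceacam1sh against NSCL61. NSCL61 against NSC is set beside them here.

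Before S phase, Cdc6 and Cdt1 help the origin recognition complex to load the Mcm2 to Mcm7 helicase onto replication origins, a step called licensing. Cdc45, the GINS complex and Mcm10 then turn the loaded helicase into an active one, and polymerases with the sliding clamp Pcna copy the DNA. E2F transcription factors, held back by the retinoblastoma protein family until cyclin-dependent kinases release them, drive the transcription of many of these genes, so their messenger RNAs are abundant in dividing progenitors and scarce in resting cells. In RNA from a whole culture, fewer cells of a type and less RNA per cell cannot be told apart.

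The promoter windows of the 31 genes were searched for E2F binding words because these genes are known E2F targets. Windows of 250 bases before to 50 bases after each start came from RefSeq (GRCm38.p6) and were found for 26 of the 31 genes, in 29 windows. Ccne2, Gins1, Gins2, Mcm4 and Pole had none in the table. The E2F words searched were TTTCCCGC, TTTCGCGC, TTTGCCGC and TTTGGCGC on both strands, and matches on opposite strands can overlap. 5 windows are printed 5′ to 3′ along the gene, in lower case with E2F words in capitals. Cdc6 (chr11:98907901-98908200, plus strand) and Pola1 (chrX:93632106-93632405, minus strand) hold 1 match each, Mcm5 (chr8:75109259-75109558, plus strand) an overlapping pair and Mcm6 (chr1:128359656-128359955, minus strand) 3. Tk1 (chr11:117825965-117826264, minus strand) is shown because it had the largest difference of the 31 genes between the NSCL61 arrays and holds no match.
Cdc6: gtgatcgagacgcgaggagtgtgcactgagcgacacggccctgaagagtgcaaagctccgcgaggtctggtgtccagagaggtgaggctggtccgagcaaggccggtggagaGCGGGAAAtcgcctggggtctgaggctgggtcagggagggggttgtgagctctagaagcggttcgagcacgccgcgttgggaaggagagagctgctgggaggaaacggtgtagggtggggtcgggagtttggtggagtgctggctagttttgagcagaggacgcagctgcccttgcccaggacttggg
Mcm5: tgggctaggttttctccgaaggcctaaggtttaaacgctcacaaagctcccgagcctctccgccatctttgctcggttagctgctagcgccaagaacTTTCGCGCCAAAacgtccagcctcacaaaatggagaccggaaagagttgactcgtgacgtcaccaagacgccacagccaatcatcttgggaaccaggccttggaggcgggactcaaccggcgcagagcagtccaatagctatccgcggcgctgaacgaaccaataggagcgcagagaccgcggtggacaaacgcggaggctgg
Mcm6: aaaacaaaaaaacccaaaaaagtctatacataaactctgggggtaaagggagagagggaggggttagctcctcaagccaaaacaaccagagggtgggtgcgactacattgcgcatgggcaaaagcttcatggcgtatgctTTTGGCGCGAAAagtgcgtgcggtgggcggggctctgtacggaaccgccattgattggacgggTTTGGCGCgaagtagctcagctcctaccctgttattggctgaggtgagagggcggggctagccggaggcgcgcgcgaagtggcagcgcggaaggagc
Pola1: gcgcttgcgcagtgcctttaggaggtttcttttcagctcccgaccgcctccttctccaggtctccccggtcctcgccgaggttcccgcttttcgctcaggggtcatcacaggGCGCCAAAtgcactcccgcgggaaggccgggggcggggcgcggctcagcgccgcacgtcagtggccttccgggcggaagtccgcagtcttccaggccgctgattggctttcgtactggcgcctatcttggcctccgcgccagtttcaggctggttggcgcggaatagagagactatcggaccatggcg
Tk1: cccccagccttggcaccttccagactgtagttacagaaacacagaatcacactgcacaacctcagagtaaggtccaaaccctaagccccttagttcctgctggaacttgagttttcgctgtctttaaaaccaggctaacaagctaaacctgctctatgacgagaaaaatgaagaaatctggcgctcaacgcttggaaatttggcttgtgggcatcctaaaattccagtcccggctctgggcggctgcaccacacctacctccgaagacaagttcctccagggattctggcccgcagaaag

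E2F words occurred in 9 of the 29 windows (31%), compared with 2.26% of the 32851 windows of the whole table. The 9 genes were the licensing genes Cdc6, Cdt1, Mcm3, Mcm5, Mcm6 and Mcm7, the polymerase subunit Pola1, the phosphatase Cdc25a and the chromatin factor Uhrf1. At least 2 matches were found in 4 windows (13.8%), against 0.0974% of all windows. Of the 14 match positions, 10 lay before the start, and they ranged from -185 to 38 bases from it. The windows of the 31 genes were richer in G and C, with a median of 58.3% against 52.7% over the table. Among windows with at least 55% G and C, 8 of 20 (40%) of these genes' windows held an E2F word and 3.90% of 14253 windows of the table did.

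The same windows were searched for 2 other elements known from cell-cycle promoters. CHR words (TTTGAA and TTCGAA, both strands), which are typical of genes used late in the cycle, were in 5 of the 29 windows (17.2%), and in 19.2% of all windows. The CCAAT box, the binding word of the factor NF-Y, was in 18 windows (62.1%), and in 37.4% of all windows. The 26 mitotic genes of a list used below gave another picture, with an E2F word in 1 of 21 windows (4.76%), a CHR word in 16 (76.2%) and a CCAAT box in 17 (81.0%). A match is a run of letters, and a window without one says nothing of binding elsewhere.

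**Figure D1:**
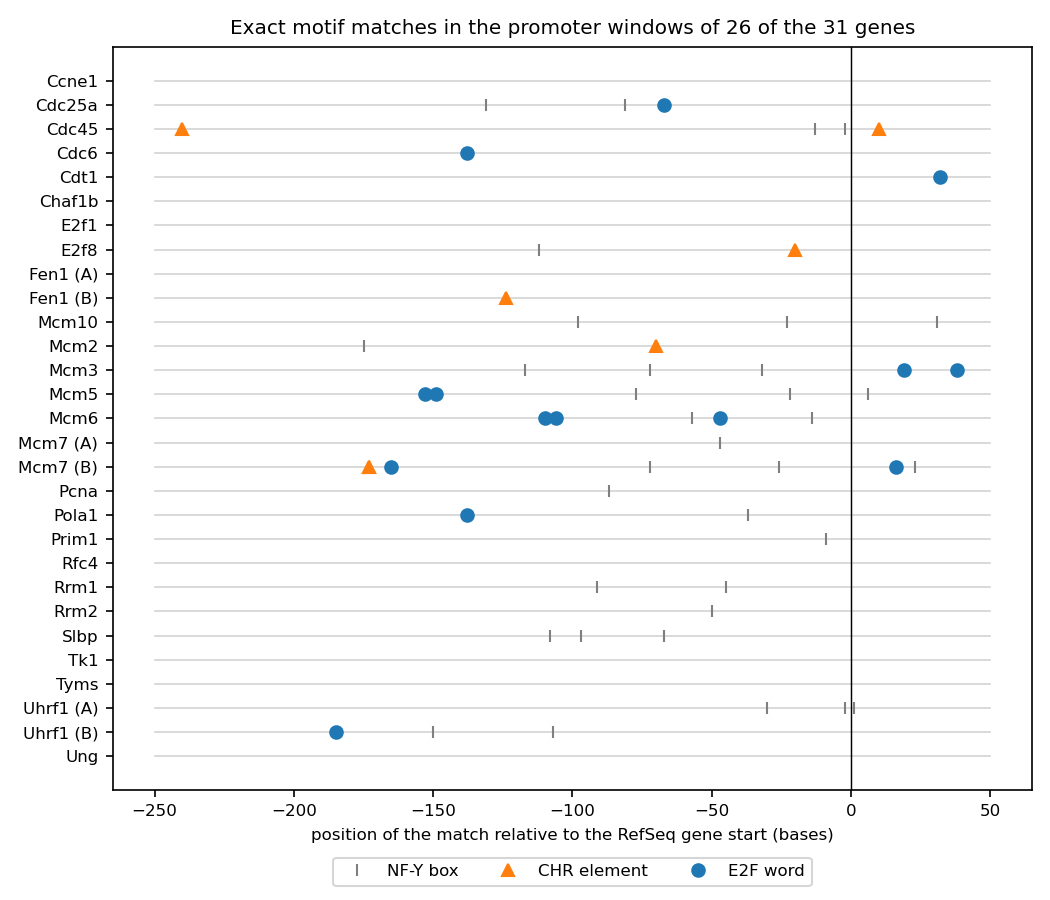
Positions of exact E2F, CHR and CCAAT (NF-Y box) matches in the 29 promoter windows of 26 genes, in bases from the RefSeq start, with each window drawn as a grey line; A and B are 2 windows of 1 gene. E2F words (blue) are found in 9 windows, among them those of Mcm3, Mcm5, Mcm6 and Mcm7.

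Of the 22177 genes, 13917 to 14911 were well above background per array, and no spot was saturated. Pearson correlations of levels across 12407 genes were 0.933 or higher among NSC, NSC-Ceacam1L and NSCL61 but 0.840 to 0.860 between NSCL61-Ceacam1sh and each of those 3, so that array stands apart. Cell type markers differed on this array and also among the other 3. Of 9 neural stem cell markers, 9, 9, 8 and 8 were well above background on NSC, NSC-Ceacam1L, NSCL61 and NSCL61-Ceacam1sh, with summed signals (relative to the array's 75th percentile) of 884, 707, 943 and 318. Prom1 was not above background on NSCL61, nor was Hes5 on NSCL61-Ceacam1sh. Counts and sums hide uneven differences, because the brightest markers carry the sums. Vim was the brightest on NSCL61-Ceacam1sh, with a log2 level of 8.13 relative to that percentile. Between NSCL61 and NSCL61-Ceacam1sh, Fabp7 went from 8.36 to -4.00 and Slc1a3 from 4.73 to -3.70. Pax6 and Prom1 did not fall. The summed signal of 6 astrocyte markers was 282, 526, 686 and 3.81, with Gfap and S100b not above background on NSCL61-Ceacam1sh, and that of 6 oligodendrocyte markers was 196, 189, 122 and 2.44, with Olig1 and Olig2 not above background there. On NSC, NSC-Ceacam1L and NSCL61, the astrocyte marker Gfap had log2 levels of -3.01, 4.32 and 7.97. On the same arrays Aqp4 had -1.14, 2.63 and 1.43, and Aldh1l1 had 5.56, 6.16 and 3.72. Of 6 fibroblast markers, 2, 3, 3 and 5 were above background, with sums of 0.339, 0.523, 0.280 and 21.7; Lum was above background on no array. Neuronal markers summed to 12.8 to 66.0, microglial ones to 12.8 to 28.4 and endothelial ones to 9.22 to 19.6. The part of these markers in the results on the 31 genes was not tested. No probe of the arrays is named Ceacam1, so the labels could not be checked against the manipulated gene. Each array lies at its own position of a single slide, and position and group cannot be told apart.

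Levels are log2 signals relative to the array's 75th percentile, listed throughout in the order NSC, NSC-Ceacam1L, NSCL61 and NSCL61-Ceacam1sh. They rank arrays for 1 gene and do not rank genes. Differences carry the scanner software's modelled spot error (±), which covers no spread between arrays or cultures. This error was nearly the same for most genes described here, with a median of 0.145 or 0.146 per array for signals well above background. It was larger for some dim signals, such as Cdc6 on NSCL61 (0.196). Most differences thus carry an error near 0.20, and gaps counted in modelled errors are set against a nearly fixed width, not a measured spread. With 1 array per group there is no replicate and no test. Genes count as higher or lower from a 2-fold difference.

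Most of the 31 genes followed 1 order across the arrays. The order set against all genes here is the one that these genes themselves showed. In 26 of the 30 genes seen on all 4 arrays, the level was highest on NSCL61-Ceacam1sh, then NSC, then NSC-Ceacam1L, and lowest on NSCL61, an order found in 9.04% of 12407 genes. Of the 30, 29 were highest on NSCL61-Ceacam1sh and 27 lowest on NSCL61. Neighbouring arrays lay at least 2 modelled errors apart throughout the order for 19 genes. NSC-Ceacam1L and NSCL61 were closer than that for 7 genes (Cdt1, Mcm6, Mcm7, Prim1, Tyms, Slbp and Cdc25a), NSC and NSCL61-Ceacam1sh for 5 (Mcm7, Gins1, Pcna, Rrm1 and Tyms), and NSC and NSCL61 for Ung. The 4 genes outside the order were Prim1, Ung and Cdc25a, which were lowest on NSC-Ceacam1L, and Pcna, whose level was 5.94 on NSC and 5.93 on NSCL61-Ceacam1sh.

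**Figure D2:**
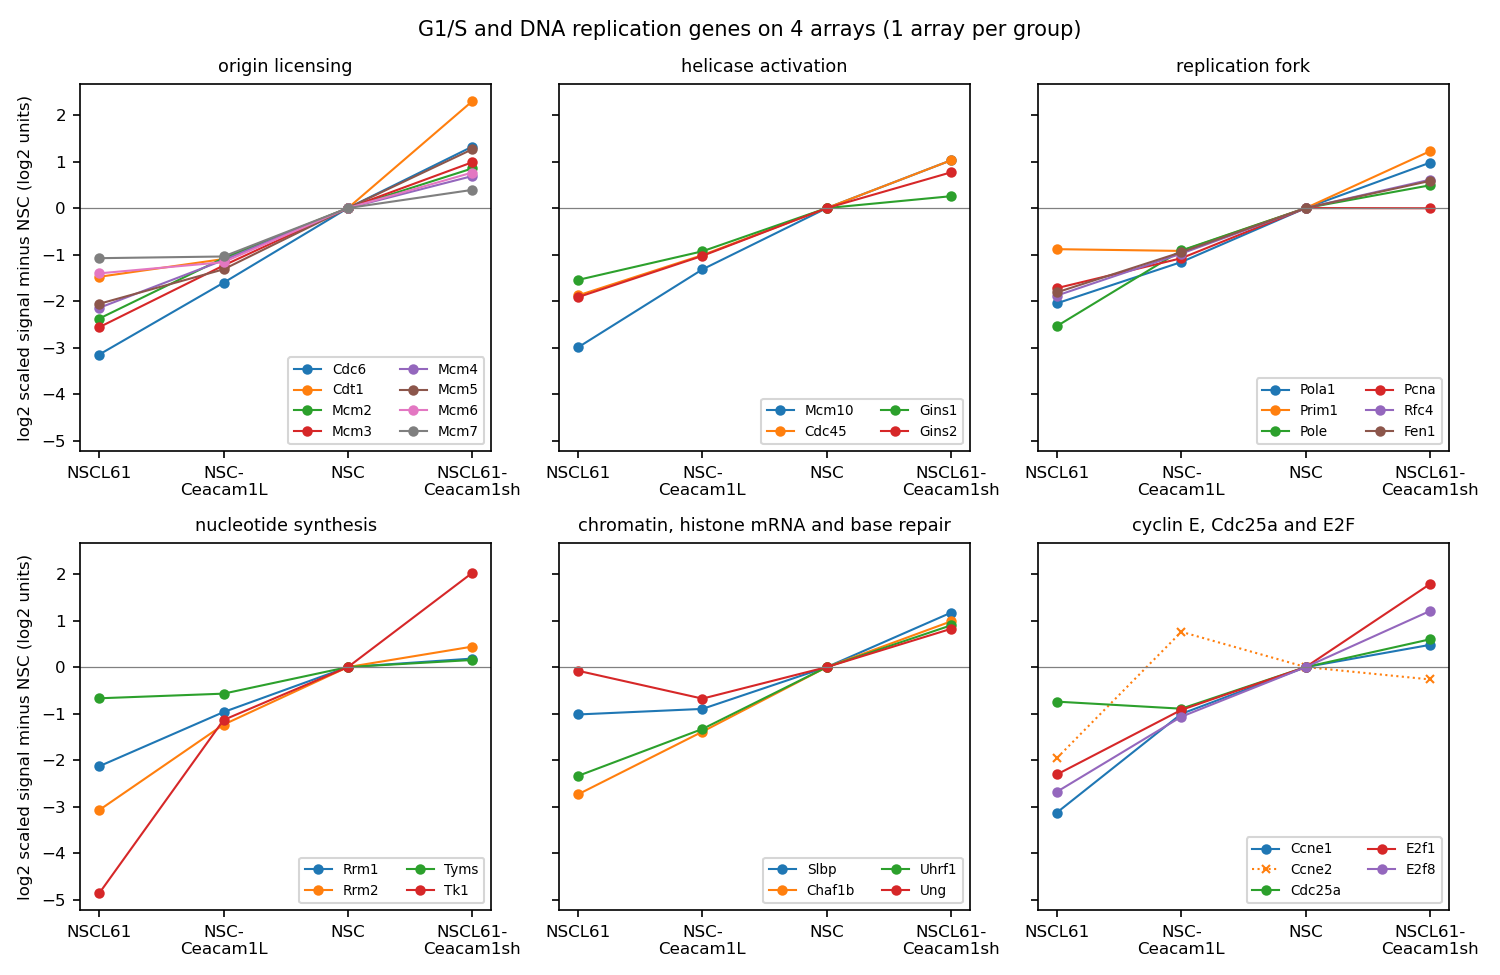
Log2 levels of the 31 genes minus their level on NSC (vertical axis) on the 4 arrays (horizontal axis, 1 array per group), in a panel per role; each line is a gene, and Ccne2, not well above background on 3 arrays, is dotted. In 26 of 30 genes the lines climb from NSCL61 through NSC-Ceacam1L and NSC to NSCL61-Ceacam1sh.

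Between NSC-Ceacam1L and NSC, the replication genes were lower by a narrow margin around 2-fold. Of the 31, 19 were at least 2-fold lower and 0 were at least 2-fold higher, where 6.04% and 10.5% of 15224 evaluated genes were. The median difference was -1.04, against -0.10 over all genes, and all but Ccne2, which was not well above background on NSC, were lower to some degree. By the probes used, the lowest difference was that of the licensing factor Cdc6 (-1.61 ± 0.21), followed by Chaf1b (-1.39 ± 0.20) and Uhrf1 (-1.33 ± 0.20). A further Cdc6 probe gave only -1.32 ± 0.22. Because most values lie close to 2-fold, this count depends on the scaling: 8 genes were 2-fold lower with quantile normalization, 5 with cyclic loess and 1 with scaling on the spike-in probes. Relative to the median of all genes, the median of the 31 lay between -0.94 and -0.88 under these settings; with spike-in scaling it is fixed by construction.

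Between NSCL61-Ceacam1sh and NSCL61, the same genes were higher, and over a wide range. All 30 evaluated genes were higher to some degree, 28 by at least 2-fold and 0 were at least 2-fold lower, where 23.4% and 24.2% of 15514 genes were. The median difference was 2.97, a 7.81-fold higher level, against 0.01 over all genes. The 2 genes under 2-fold were Tyms (0.82 ± 0.22) and Ung (0.90 ± 0.20), and both passed it with median or spike-in scaling. The largest difference was that of Tk1, thymidine kinase of the salvage pathway, at 6.89 ± 0.21 or 119-fold; 147 of the 15514 genes had a larger one.

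Between NSCL61 and NSC, 26 of 30 genes were at least 2-fold lower and 0 were at least 2-fold higher, where 14% and 14.4% of 15209 genes were. The median difference was -2.05, a 4.15-fold lower level, against 0.03 over all genes. Tk1 (-4.87 ± 0.21), Cdc6 (-3.15 ± 0.24), Ccne1 (-3.13 ± 0.20) and Rrm2 (-3.08 ± 0.20) had the lowest values. The 4 genes under 2-fold were Prim1, which passed it with spike-in scaling, Tyms, Cdc25a and Ung. This comparison shares the NSC array with the first and the NSCL61 array with the second, so its values are not independent of theirs.

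**Figure D3:**
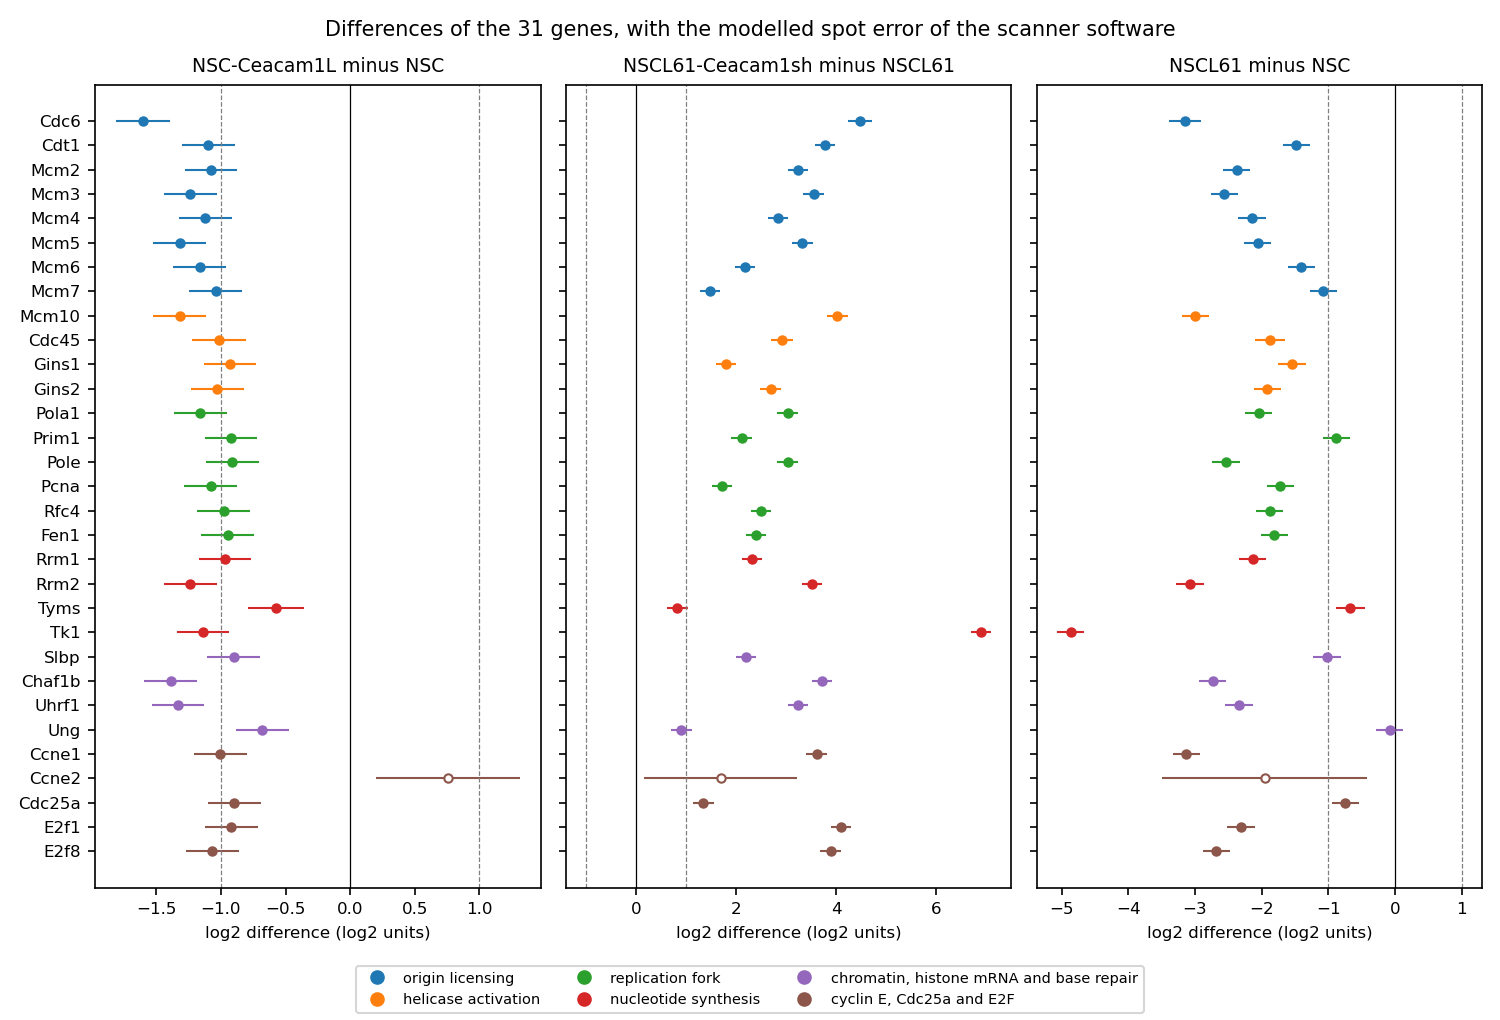
Log2 differences of the 31 genes in the 3 comparisons, coloured by role, with the modelled spot error as bars; dashed lines mark 2-fold and open points are Ccne2, not well above background on 1 or both arrays. Values cluster near -1.0 between the NSC arrays and spread from 0.82 (Tyms) to 6.89 (Tk1) between the NSCL61 arrays.

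All 8 licensing genes were past 2-fold in each of the 3 comparisons under the main scaling. Between the NSC arrays all but Cdc6 lay close to 2-fold, from -1.32 (Mcm5) to -1.04 (Mcm7). With spike-in scaling only 1 of the 31 genes was 2-fold lower there. Cdc6, the loader of the helicase, had levels of -0.17, -1.78, -3.32 and 1.15. NSCL61-Ceacam1sh was the highest and NSCL61 the lowest, 4.47 ± 0.24 apart or 22.2-fold. A second, dimmer Cdc6 probe, with levels of -0.91, -2.23, -4.16 and -1.26, gave 2.90 ± 0.34 and did not place NSCL61-Ceacam1sh above NSC. Between the NSC arrays this dimmer probe gave -1.32 ± 0.22, like Mcm5, so Cdc6 stood out there by 1 of its probes only. The brighter probe, which is the one used, lies at chr11:98782986-98783045 (mm9, plus strand). Cdt1, the partner of Cdc6 in loading, had levels of 3.56, 2.46, 2.08 and 5.86, a difference of 3.78 ± 0.20 between the NSCL61 arrays. Its levels on NSC-Ceacam1L and NSCL61 were closer than those on any other pair of arrays.

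The 6 subunits of the Mcm2 to Mcm7 ring did not differ equally. Between the NSC arrays they were all lower by similar amounts, from -1.32 (Mcm5) to -1.04 (Mcm7). Between the NSCL61 arrays they ranged from 1.47 ± 0.20 for Mcm7 to 3.55 ± 0.20 for Mcm3, and between NSCL61 and NSC from -1.08 ± 0.20 for Mcm7 to -2.56 ± 0.20 for Mcm3. Mcm3 had levels of 4.87, 3.63, 2.30 and 5.85, so each array was separated from the next. Mcm7 had levels of 5.16, 4.12, 4.09 and 5.55, which form a high pair and a low pair. Mcm2 (3.24, 2.16, 0.86 and 4.09) and Mcm5 (3.97, 2.65, 1.91 and 5.23) resembled Mcm3 in spread. Mcm6 (5.95, 4.79, 4.55 and 6.72) and Mcm4 (5.0, 3.88, 2.86 and 5.69) lay between. The promoter windows of Mcm5, with its overlapping E2F words, and of Mcm6, with 3, are those printed above.

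In the group that activates the helicase, Mcm10 differed most. This factor, needed for the helicase to start moving, had levels of 2.60, 1.28, -0.39 and 3.63. NSCL61-Ceacam1sh exceeded NSCL61 by 4.02 ± 0.21, and the difference of NSCL61 from NSC was -2.99 ± 0.21. Cdc45, which joins the helicase at its activation, had levels of -0.65, -1.66, -2.53 and 0.38. For the GINS subunits the levels were 2.09, 1.17, 0.55 and 2.35 for Gins1 and 2.02, 0.99, 0.11 and 2.79 for Gins2. Both thus had their highest and lowest values on the NSCL61 pair, Gins1 over 1.80 ± 0.20 and Gins2 over 2.68 ± 0.20. Between the NSC arrays, 3 of these 4 genes were 2-fold lower under the main scaling, and Gins1 was at -0.93 ± 0.20. Cdc45 (-1.01 ± 0.21) and Gins2 (-1.03 ± 0.20) only just passed.

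Among the 6 genes that work at the fork, the differences between the NSCL61 arrays ran from 1.72 (Pcna) to 3.03 (Pole). Pole, the catalytic subunit of the leading-strand polymerase epsilon, had levels of 3.09, 2.18, 0.55 and 3.58. Pola1, the catalytic subunit of the polymerase that begins each new strand, had 2.23, 1.07, 0.18 and 3.21. Its partner Prim1, the primase that lays down the RNA primer, showed a different order, with 3.60, 2.68, 2.72 and 4.83. For Prim1 the NSC-Ceacam1L and NSCL61 arrays did not differ beyond 2 modelled errors, and NSCL61 was -0.88 ± 0.20 from NSC. Pcna, the sliding clamp, had 5.94, 4.86, 4.22 and 5.93. The clamp gene was thus no higher on NSCL61-Ceacam1sh than on NSC. Rfc4, a subunit of the loader that places the clamp, had 4.17, 3.19, 2.29 and 4.78, and the flap nuclease Fen1, which trims lagging-strand fragments, had 4.56, 3.61, 2.75 and 5.14. Both of these kept the common order.

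The nucleotide synthesis genes held both the widest and the narrowest ranges. Tk1 had levels of 3.96, 2.82, -0.91 and 5.99. NSCL61 alone was below the 75th percentile, and NSCL61-Ceacam1sh exceeded NSC by 2.03 ± 0.20. Its probe lies at chr11:117676845-117676904 (mm9, minus strand), and a second Tk1 probe with dimmer signals gave the same size of difference between the NSCL61 arrays (6.89 ± 0.23). Rrm2, the small subunit of ribonucleotide reductase that is made in S phase, had 5.36, 4.12, 2.28 and 5.80, and the large subunit Rrm1 had 4.54, 3.58, 2.41 and 4.73. Rrm2 thus spanned 3.52 ± 0.20 and Rrm1 2.32 ± 0.20 between the NSCL61 arrays. Tyms, thymidylate synthase of the de novo pathway, had only -1.28, -1.85, -1.95 and -1.13. For Tyms no comparison reached 2-fold in the main scaling, so the 2 routes to thymidylate, salvage through Tk1 and synthesis through Tyms, had unequal differences.

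Of the genes for chromatin assembly, histone messenger RNA and base repair, the 2 chromatin factors differed most. Chaf1b, a subunit of the CAF-1 complex that deposits histones behind the fork, had levels of 4.06, 2.67, 1.32 and 5.04. Uhrf1, which brings maintenance methylation to newly copied DNA, had 4.18, 2.85, 1.84 and 5.08. Each was more than 8-fold higher on NSCL61-Ceacam1sh than on NSCL61, by 3.72 ± 0.20 and 3.24 ± 0.20. Slbp, which binds the stem-loop of histone messenger RNA, had 0.41, -0.49, -0.61 and 1.58. Ung, the uracil-DNA glycosylase, had 5.23, 4.55, 5.15 and 6.05. For Ung the NSCL61 and NSC arrays did not differ beyond the modelled error (-0.08 ± 0.20), and NSC-Ceacam1L was the lowest array.

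Of the genes that govern S phase entry, E2f1 and E2f8 had nearly equal differences although the first is known as an activator and the second as a repressor of the same target genes. E2f1 had levels of 1.39, 0.47, -0.92 and 3.18, and E2f8 had 1.87, 0.81, -0.81 and 3.08. The differences between the NSCL61 arrays were 4.09 ± 0.21 and 3.89 ± 0.21. Cyclin E1 (Ccne1), which activates the kinase Cdk2 at the G1/S boundary, had levels of 3.49, 2.48, 0.36 and 3.96. NSCL61 was the array that stood apart. Cdc25a, the phosphatase that releases the inhibition of that kinase, had 1.95, 1.06, 1.21 and 2.55 and spanned only 1.34 ± 0.20 between the NSCL61 arrays. Cyclin E2 (Ccne2) was well above background on NSC-Ceacam1L only, with a level of -4.27. It was not well above background on NSC or on either NSCL61 array, so no difference is given for it, and no bound above 1-fold could be set.

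For 9 of the 31 genes the arrays carried more than 1 probe, 12 further probes in all, and 8 of these were well above background on all 4 arrays. In each comparison all 8 had the same sign as the probe used. Median gaps in size between the probes of a gene were 0.09, 0.10 and 0.10. The largest gap, 1.57 between the NSCL61 arrays, was that of the Cdc6 probes given above. Between the NSC arrays the largest was 0.63, for Pole. The Pole probe used gave -0.91 ± 0.20 there, under 2-fold, and the other gave -1.54 ± 0.23, past it.

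Other genes of the pathway were read from a list of 55 replication genes outside the 31, among them the origin recognition complex, the remaining polymerase subunits, replication protein A and DNA repair genes of S phase. Between the NSC arrays, 22 of 54 evaluated genes were 2-fold lower and 0 higher, with a median of -0.95; 12 were lower with cyclic loess and 5 with spike-in scaling. Between the NSCL61 arrays, 41 of 55 were 2-fold higher and 0 lower, with a median of 1.67. Between NSCL61 and NSC, 35 of 54 were 2-fold lower and 0 higher, with a median of -1.48. Of all genes, 6.04%, 23.4% and 14% were called in these directions in the 3 comparisons, and 10.5%, 24.2% and 14.4% in the opposite ones. In the second comparison the median of the 31 genes (2.97) was larger than that of this list.

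Exo1, a nuclease of mismatch repair, stood at an end of this list in all 3 comparisons, with levels of 2.40, 0.76, -0.84 and 3.37. The histone chaperone Asf1b (2.80, 1.51, 0.22 and 4.24) and the chromatin remodeller Hells (-1.01, -2.46, -3.14 and 0.79) were next to it between the NSCL61 arrays. Rrm2b, the ribonucleotide reductase subunit known for serving cells outside S phase, went the other way from Rrm2, with differences of 0.34 ± 0.26 and -0.97 ± 0.30 in the first 2 comparisons, neither of them past 2-fold. Promoter windows of this list held an E2F word in 17 of 52 (32.7%), a share close to that of the 31 genes.

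Some complexes were uneven within themselves (the subunits named in this paragraph were picked after their values were seen). In the origin recognition complex, Orc1 was well above background on NSCL61-Ceacam1sh and not on NSCL61, which puts it at least 12.2-fold higher there ("at least" sets the bright array against the dimmest signal well above background on the other), whereas Orc2 to Orc6 differed by 0.20 to 1.71. Within GINS, Gins3 (0.66 ± 0.20) and Gins4 (0.78 ± 0.20) did not reach 2-fold between the NSCL61 arrays where Gins1 and Gins2 did. Polymerase epsilon ranged from Pole3 (0.41 ± 0.20), a small subunit that also belongs to a chromatin complex, to Pole (3.03 ± 0.20). Both subunits of CAF-1 were alike, with Chaf1a at 3.50 ± 0.20 and Chaf1b at 3.72 ± 0.20. Of 8 E2F genes, 5 were 2-fold higher on NSCL61-Ceacam1sh than on NSCL61, beside 23.4% of all genes. They ran from E2f4 (1.73 ± 0.21) to E2f1 (4.09 ± 0.21), and E2f3, E2f5 and E2f6 were between 0.18 and 0.82.

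The 34 regulators of G1/S include cyclins D, their kinases and inhibitors, the retinoblastoma family and further E2F factors. Their medians were -0.52, 0.48 and -0.69 in the 3 comparisons. These have the signs of the medians of the 31 genes but are smaller in size, and single regulators went both ways. Between the NSC arrays 7 of 33 were 2-fold lower and 0 higher (6.04% and 10.5% of all genes; 4 lower and 2 higher with spike-in scaling), with the repressor E2f7 (-1.75 ± 0.21) and the transcription factor Mybl2 (-1.49) lowest. Between the NSCL61 arrays 13 of 34 were 2-fold higher and 6 lower, beside 23.4% and 24.2% of all genes. Mybl2 was the highest at 4.31, with levels of 2.82, 1.33, 0.19 and 4.50. Cdkn2a, the locus of the inhibitor p16 and of Arf, was the lowest of those seen on both arrays, with 6.40, 5.85, 6.26 and 1.47. Rb1, which restrains E2F, had 1.41, 2.06, 2.70 and 0.33, a pattern opposite to that of most of the 31 genes. Its family (looked at after the values were seen) was not uniform between the NSCL61 arrays. Rbl1 was higher on NSCL61-Ceacam1sh (2.01 ± 0.21), and Rbl2 did not reach 2-fold (-0.58 ± 0.21). The 7 kinase inhibitor genes of the list (set side by side after their values were seen) did not differ in 1 direction. Besides Cdkn2a, 3 were lower on NSCL61-Ceacam1sh, with Cdkn1b at -1.77, Cdkn2b at -1.55 and Cdkn1c, not above background there, at least 45.5-fold lower. Cdkn1a was higher (1.02), and Cdkn2c (-0.09) and Cdkn2d (0.22) did not reach 2-fold. Between NSCL61 and NSC 3 of 33 were 2-fold higher and 13 lower, beside 14.4% and 14% of all genes, with the inhibitor Cdkn1a at 3.72 and the cyclin Ccnd2 at -4.02.

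Replication genes were not alone in these differences. Of 26 mitotic genes, which act after S phase, 11, 24 and 26 passed 2-fold in the same directions as the 31 genes in the 3 comparisons and 0 passed it in the other, with medians of -0.98, 2.46 and -2.16. The first of these counts rested on the scaling, with 7 under median scaling, 6 under normexp background correction, 3 after quantile normalization, 2 after cyclic loess and 1 when scaled on the spike-in probes. Birc5, the chromosomal passenger survivin, was the highest between the NSCL61 arrays (4.23), and Ccnb2, a B-type cyclin, the lowest between NSCL61 and NSC (-4.04). Of 14 housekeeping genes, 1 was 2-fold lower in the first comparison, 3 higher in the second and 1 lower in the third. The shares of all genes called so were 6.04%, 23.4% and 14%. Medians of the housekeeping genes were -0.31, 0.33 and -0.16, of the same signs as those of the 31 genes.

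**Figure D4:**
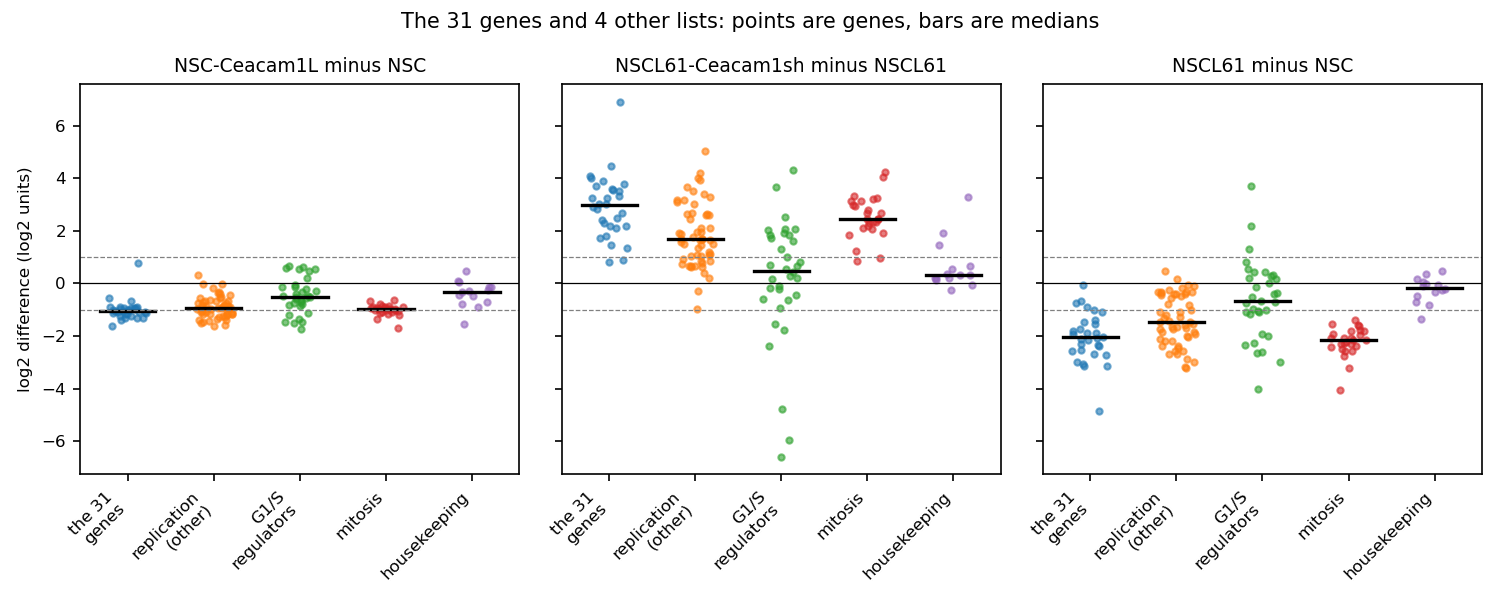
Log2 differences of the 31 genes and of 4 other gene lists in the 3 comparisons; each point is a gene, black bars are medians and dashed lines mark 2-fold. The medians of the 31 genes and of the mitotic genes lie at -1.04 and -0.98, 2.97 and 2.46, and -2.05 and -2.16.

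The size of these differences was set against the scaling of the arrays. The 8 spike-in probes, equal in amount by design, differed by medians of -0.38, -0.45 and 0.21 in the 3 comparisons after the main scaling. The median of all genes moved by over 0.1 from its main value with quantile normalization (0.13), cyclic loess (0.23) and spike-in scaling (0.41) in the first comparison, with median scaling (0.42) and spike-in scaling (0.46) in the second, and with spike-in scaling (-0.22) in the third. Higher genes were 63.4% of all genes called between the NSC arrays and 76.7% and 85.6% with cyclic loess and spike-in scaling. That share was 49.2% between the NSCL61 arrays and 64.5% and 65.7% with median and spike-in scaling, and 50.7% between NSCL61 and NSC and 40.1% with spike-in scaling. Relative to the median of all genes, which median and spike-in scaling leave as it is by construction, the median of the 31 was 2.84 to 2.95 in the second comparison and -2.10 to -1.97 in the third.

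**Figure D5:**
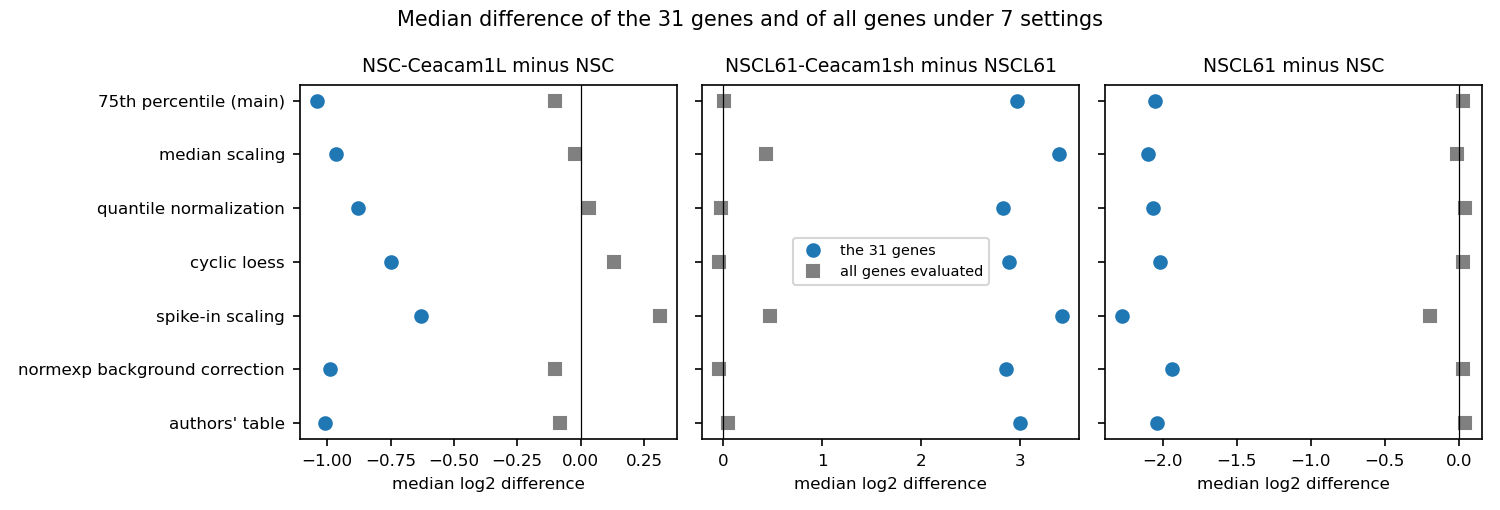
Median log2 difference of the 31 genes (circles) and of all evaluated genes (squares) under the main scaling and 6 alternatives, by comparison. Median and spike-in scaling shift every gene by the same amount, so circles and squares move together there by construction; with the other 4 settings circles minus squares range from -0.93 to -0.88, from 2.84 to 2.95 and from -2.10 to -1.97 in the 3 comparisons.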

How the data were processed

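RNA of 4 cultures was measured on 4 single-colour Agilent arrays (design 028005, mm9), 1 per group, grouped by sample title. Per the file headers, the deposited intensity values (processed signal, corrected for background within the array) came from Agilent Feature Extraction 10.7.3.1 under protocol GE1_107_Sep09; the submitters' processing notes name version 9.1. In the NSC file signals were rounded to 3 significant digits and some gene names had changed, and the NSCL61 file therefore gave the names. The authors' deposited table of log2 values served as an alternative, with its centring unknown. Log2 signals were set relative to the 75th percentile of all spots of their array other than controls. Outlier spots (143 to 187 per array) were then left out and spots of a probe averaged. A probe was well above background when at least 0.5 of its spots were. Genes are names found in the RefSeq table of GRCm38.p6. A gene was evaluated when well above background on at least 1 array of the 2 and counted from 2-fold with the brighter array above background. Named were the genes first by size in a role or against most of their list and, of other lists, the 3 at each end. The 31 genes and the lists were chosen with earlier results of these data known. Scaling, background correction, filters, probe choice and threshold were varied (12 alternatives) with Python 3.11.15 and limma 3.58.1 in R 4.3.3. The counting was tested on simulated data. 1 marker gene of the neural stem cell list is not reported here.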

Additional observations from a re-analysis of the deposited data

How the results depend on the processing

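None of the 31 genes past 2-fold changed sign under the alternative settings that alter the values. The filter settings and the 1.5-fold threshold leave each difference as it is, so no sign could change under them. Each group had 1 array, so no replicate could be left out. No paired analysis was possible because each group has a single array. A median counts as moved beyond a modelled error of 0.20. Between NSC-Ceacam1L and NSC, 8 of the 31 genes were 2-fold lower with quantile normalization, 5 with cyclic loess, 1 with spike-in scaling, 29 when counted from 1.5-fold and 11 when centred on the median of all genes, an alternative chosen after seeing the data; 1 gene (Ccne2, not well above background on NSC) was higher with cyclic loess, spike-in scaling and from 1.5-fold. There the median was -0.75 with cyclic loess and -0.63 with spike-in scaling, that of the other replication genes -0.74 and -0.53, of the G1/S regulators -0.32 and -0.11, of the mitotic genes -0.72 and -0.57, and of the housekeeping genes 0.12 and 0.10, a reversed sign (-0.00926 with quantile normalization). Between NSCL61-Ceacam1sh and NSCL61, median and spike-in scaling gave medians of 3.39 and 3.42 for the 31 genes, 2.09 and 2.13 for other replication genes, 0.90 and 0.94 for G1/S regulators, 2.88 and 2.92 for mitotic genes and 0.75 and 0.79 for housekeeping genes (0.0512 with cyclic loess). Between NSCL61 and NSC, spike-in scaling gave -2.28, -1.70, -0.91, -2.38 and -0.39 in the same order, and normexp background correction -1.13 for other replication genes. The causes were not tested. Ccne2 and Orc1 were among the genes not well above background on every array. Between the NSCL61 arrays, 3 other replication genes, 3 G1/S regulators and 1 mitotic gene were well above background on 1 array only. Between NSCL61 and NSC these numbers were 2, 0 and 1.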

Other observations

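Across the 30 of the 31 genes seen on all 4 arrays, the difference between NSC-Ceacam1L and NSC and that between NSCL61-Ceacam1sh and NSCL61, which share no array, had a Pearson correlation of -0.61 and a Spearman correlation of -0.61. Without Tk1, the Pearson correlation was -0.72 over 29 genes. This is a description across genes, which are not independent replicates, and brighter and dimmer probes share the same slide and scaling.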
